A study of Mus musculus and Bos taurus with 6 samples.

Results

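Cattle chromosome 18 carried 622 of the 11988 SOX9 peaks in the bovine list (5.19%). All lines of that list on this chromosome were taken, so the members were chosen by position alone, but the chromosome itself was singled out because the same list was known to be dense there. Its density is therefore given as a description and supports nothing else. Peaks are stretches of genome where immunoprecipitated chromatin was enriched, and each is known here by its start, its end and its width. The study profiled SOX9 in fetal testis of cattle and mouse, and the mouse libraries were not used here. The bovine material was gonads of Holstein fetuses at day 90, immunoprecipitated in 2 libraries with a rabbit antibody against SOX9, beside 1 input library of chromatin DNA without immunoprecipitation. One list stands for these 3 libraries together, so no value below has a spread between replicates, and read depth is unknown. Whole testis tissue was used, so the list cannot tell which cells of the gonad carried SOX9 at a region. How many animals were pooled is not given in the sources used here.

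SOX9 is a transcription factor with an HMG box, the domain that binds in the minor groove of DNA and bends it. In the fetal gonad it acts downstream of SRY and drives supporting cells to become Sertoli cells, which then direct testis formation. Bound regions can lie at promoters or at enhancers far from the gene they act on, so a stretch with many peaks is not a count of regulated genes. In comparative maps, cattle chromosome 18 shares its content with parts of human chromosomes 16 and 19. No sequence or gene annotation of UMD3.1, the build taken for the bovine list, was used here. The regions are therefore named by position, counted from 1, and no gene or motif is assigned to them.

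The 622 peaks ran from chr18:1025549 to 65993451, a span of 65.0 Mb. Chromosome 18 held 9.57 peaks per Mb of span (exact 95% Poisson interval 8.84 to 10.4), against 4.62 (4.53 to 4.70) on the other 28 autosomes together, a ratio of 2.07. It made up 2.61% of the autosomal span and 5.27% of the autosomal peaks. Of the 29 autosomes it was the third in density, behind chromosome 19, where 12.4 peaks fell on each Mb (11.5 to 13.3), and chromosome 25, where 10.2 did (9.31 to 11.3). Chromosome 23 followed at 7.02 (6.32 to 7.78). The intervals of 18 and 25 overlapped and those of 18 and 23 did not. Peak sequence covered 1.14% of the span, against 0.583% on the other autosomes. These intervals, like all others below, cover counting error only.

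**Figure D1:**
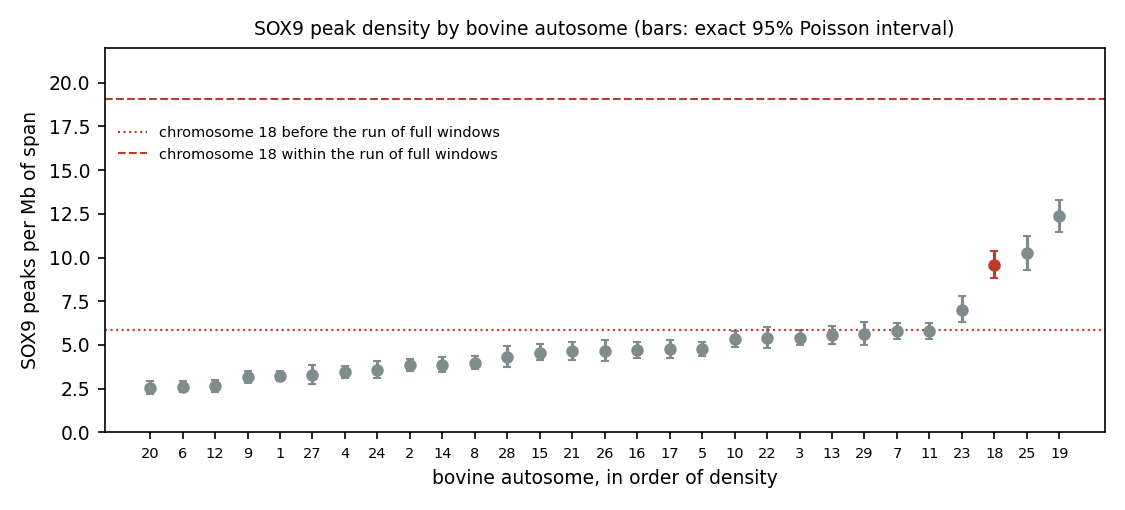
SOX9 peaks per Mb of span (y axis) for each of the 29 bovine autosomes (x axis, in order of density), with exact 95% Poisson intervals as bars and chromosome 18 in red. The dotted line marks the 5.87 peaks per Mb of chromosome 18 before 46 Mb and the dashed line the 19.1 peaks per Mb between 46 and 60 Mb.

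The peaks were spread unevenly along chromosome 18. Windows of 1 Mb, with boundaries set from the chromosome start and each peak assigned by its midpoint, showed a long dense section from chr18:46000001-60000000. Each of its 14 consecutive windows held 10 or more peaks, and together they held 267 peaks, 42.9% of the chromosome's total on 21.5% of its span. The density there was 19.1 peaks per Mb (exact 95% Poisson interval 16.9 to 21.5), 4.13 times that of the other autosomes together. The windows of this section held between 11 and 27 peaks with a median of 18.5, and the longest distance between 2 neighbouring peaks inside it was 349 kb. This section was delimited after the window counts were seen.

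The 45 windows before it came nearer to the density of the other autosomes but stayed above it. They held 264 peaks at 5.87 per Mb (5.18 to 6.62), 1.27 times the 4.62 (4.53 to 4.70) of the other autosomes together. Only 3 other autosomes (19, 23 and 25) were denser than this part. The comparison is unlike, since the other autosomes were taken whole, with their own fullest stretches. All 7 windows without a peak and all 9 peak-free stretches over 1 Mb lay in this part. After the dense section, from 60 Mb to the last peak, 91 peaks followed at 15.2 per Mb (12.2 to 18.6).

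**Figure D2:**
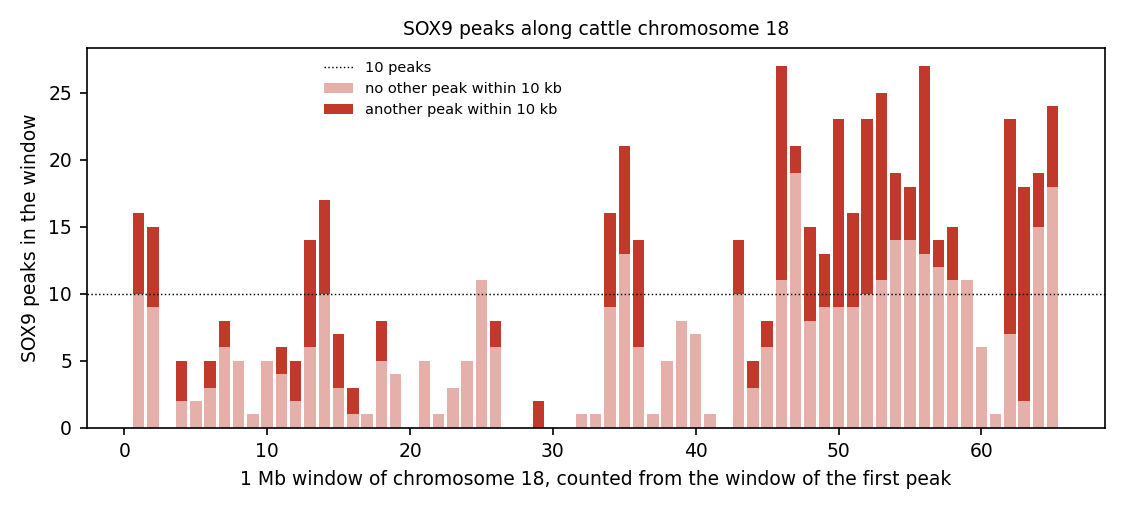
Number of SOX9 peaks (y axis) in each 1 Mb window of chromosome 18 (x axis, counted from the window of the first peak), split into peaks with and without another peak within 10 kb. Windows 46 to 59 all reach the dotted line at 10 peaks, and the fullest windows hold 27.

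Runs of such full windows, meaning at least 10 peaks each, were short elsewhere in the list. The run of 14 windows was the longest on any of the 29 autosomes, and chromosome 19 came next with 13 windows (chr19:33000001-46000000, 253 peaks). On the other 28 autosomes the longest run had a median of 3 windows. Its length depended on the minimum that was set. Runs of at least 5 peaks reached 18 windows on chromosome 18 and 25 on chromosome 19, and runs of at least 15 peaks reached 7 on both. The fullest stretch of 14 windows on each autosome held 267 peaks on chromosome 18, 261 on chromosome 19 (chr19:33000001-47000000) and 229 on chromosome 25 (chr25:26000001-40000000).

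Single windows of chromosome 18 did not reach the highest counts of the list. Its 2 fullest windows, chr18:46000001-47000000 and chr18:56000001-57000000, held 27 peaks each, while chromosome 25 reached 44 and chromosome 19 reached 41. Such windows were still rare, since 0.736% of windows on the other autosomes held 27 or more peaks. The window from chr18:53000001-54000000 held 25 peaks and the one from chr18:65000001-66000000 held 24. Next came chr18:50000001-51000000, chr18:52000001-53000000 and chr18:62000001-63000000 with 23 peaks each. The windows chr18:35000001-36000000 and chr18:47000001-48000000 held 21 each. The tenth place was shared by chr18:54000001-55000000 and chr18:64000001-65000000 with 19 each. Of the windows of 20 or more peaks, chr18:35000001-36000000 alone lay before the dense section. The fullest 10% of windows, rounded to 6 of 65, held 24.0% of the chromosome's peaks. The same share was 36.7% on the other autosomes together and between 24.5% and 42.8% on each alone. On these values chromosome 18 was the lowest of the 29, but with 1 Mb windows this place hung on the rounding. Chromosome 19, next at 24.5%, had 6 of 60 windows, which is a larger part. On chromosome 18 a further window would have added 23 peaks (3.70%), enough to lift it above chromosome 19. Chromosome 18 was again the lowest with windows of 0.5 Mb, at 30.1%, and with peaks less than 500 bp apart merged, at 23.6%. It was not the lowest with boundaries shifted by 0.5 Mb, at 27.3% and rank 26, or with windows of 2 Mb, at 22.3% and rank 24. Full windows were instead numerous, at 27 of 65 (41.5%) against 12.3% of the 2445 windows on the other autosomes. The other dense chromosomes shared this, with 51.7% on chromosome 19, 39.5% on 25 and 30.8% on 23.

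Outside the long run, 6 shorter runs of full windows stood out. The first 2 Mb with peaks, chr18:1000001-3000000, held 31 peaks, and chr18:13000001-15000000 also held 31. A run of 3 windows at chr18:34000001-37000000 held 51 peaks. Single full windows lay at chr18:25000001-26000000 with 11 peaks and at chr18:43000001-44000000 with 14. The last 4 windows, chr18:62000001-66000000, held 84 peaks, more than the last 4 windows of any other autosome, of which chromosome 17 had the most with 62.

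The emptiest part of chromosome 18 lay near its middle. The longest peak-free stretch measured 3.30 Mb (chr18:26557321-29861271) and the second 3.09 Mb (chr18:29863670-32953534). Between them stood a lone pair of peaks, 1270 and 829 bp wide and 299 bp apart (chr18:29861272-29863669). Without that pair 6.40 Mb would have been free of peaks. The third stretch measured 1.98 Mb (chr18:19656421-21634004), the fourth 1.66 Mb (chr18:41371035-43029464) and the fifth 1.49 Mb (chr18:2977492-4467242). The remaining stretches among the 8 longest measured 1.30 Mb (chr18:17085984-18389557), 1.25 Mb (chr18:33146642-34392085) and 1.19 Mb (chr18:22118151-23306435). The windows without a peak were chr18:3000001-4000000, chr18:20000001-21000000, chr18:27000001-29000000, chr18:30000001-32000000 and chr18:42000001-43000000.

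Peak-free sequence took up less of chromosome 18 than of nearly all other autosomes. Stretches over 1 Mb made up 25.2% of its span, against 41.0% on the other autosomes together, and chromosome 19 alone was lower at 8.17%. Windows without a peak made up 10.8% (7 of 65, exact 95% binomial interval 4.44% to 20.9%), against 19.2% (17.6% to 20.8%) elsewhere. Chromosomes 19 and 23 had fewer, at 3.33% and 9.62%. Across the 29 autosomes both shares fell with density (Spearman's rho = -0.69 for the stretches and -0.64 for the windows). Density is what chromosome 18 was singled out for, so neither share is a finding apart from it. The longest stretch was of ordinary length, since the longest of each other autosome ranged from 2.32 to 13.6 Mb with a median of 3.93 Mb. Assembly gaps and sequence to which reads cannot be mapped were not marked in these stretches, because no genome of the build was used.

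Distances of 5 to 50 kb between neighbouring peaks were more frequent on chromosome 18 than elsewhere, and shorter ones were about as frequent. Those of 20 to 50 kb made up 25.9% of its 621 distances (exact 95% binomial interval 22.5% to 29.6%) against 17.998% (17.3% to 18.7%) on the other autosomes. Those of 10 to 20 kb made up 13.7% (11.1% to 16.6%) against 8.57% (8.05% to 9.10%), and those of 5 to 10 kb 8.05% (6.03% to 10.5%) against 4.51% (4.13% to 4.91%). Below 5 kb the intervals of chromosome 18 and of the others overlapped in each of 4 classes. Distances under 500 bp, between peaks that nearly touch, made up 6.60% (4.78% to 8.85%) against 5.90% (5.47% to 6.36%). The median distance was 36.6 kb on chromosome 18 and 66.9 kb elsewhere. It was shorter still on chromosomes 25 (24.9 kb) and 19 (28.1 kb), and 46.9 kb on chromosome 23. More peaks per Mb leave shorter distances between them. These differences are therefore not separate from the density for which chromosome 18 was singled out.

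**Figure D3:**
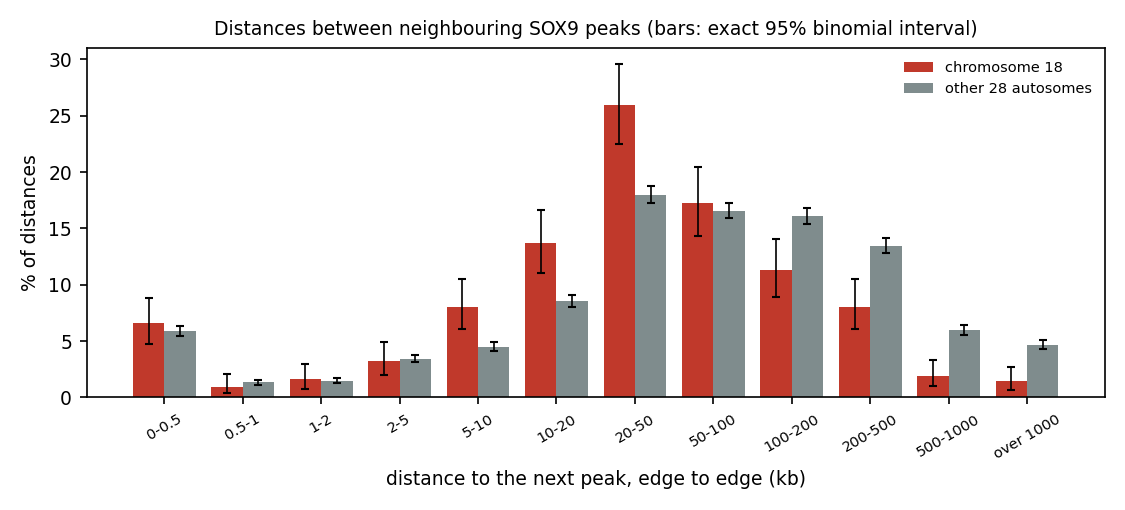
Share of distances between neighbouring peaks (y axis, %) in each class of distance (x axis, kb), for chromosome 18 in red and the other 28 autosomes in grey, with exact 95% binomial intervals. Classes from 5 to 50 kb are taller on chromosome 18, those from 100 kb up are shorter, and those under 5 kb overlap.

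Close company was more common on chromosome 18 than on the other autosomes, to about the degree seen in equally full windows elsewhere. Another peak lay within 10 kb, edge to edge, for 231 of 622 peaks, or 37.1% (exact 95% binomial interval 33.3% to 41.1%), against 30.2% (29.3% to 31.0%) on the other autosomes. Chromosomes 25 with 47.8%, 19 with 43.5% and 23 with 38.0% were higher. At 5 kb the share was 23.2% and chromosome 18 ranked 14 of 29. When windows of like content were set side by side, the intervals of chromosome 18 and of the other autosomes overlapped in each of 5 classes. In windows of 20 to 27 peaks 48.1% of the 214 peaks on chromosome 18 (41.3% to 55.0%) and 45.5% of the 1065 elsewhere (42.5% to 48.6%) had such a neighbour. In windows of 15 to 19 peaks the shares were 39.7% (32.6% to 47.1%) and 37.5% (34.8% to 40.3%), in windows of 10 to 14 peaks 28.6% (19.6% to 39.0%) and 31.6% (29.6% to 33.7%), and in windows of 5 to 9 peaks 22.5% (15.1% to 31.4%) and 26.8% (25.4% to 28.2%).

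**Figure D4:**
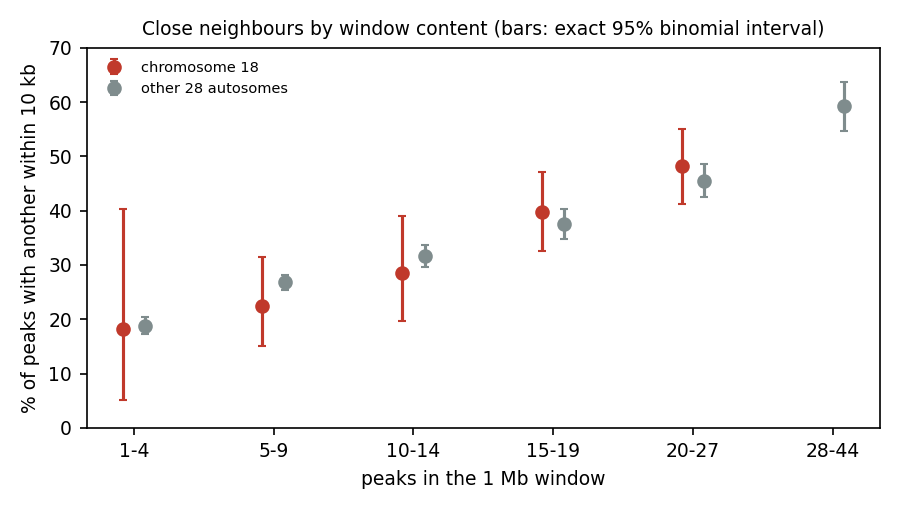
Share of peaks with another peak within 10 kb (y axis, %) by the number of peaks in their 1 Mb window (x axis), for chromosome 18 in red and the other 28 autosomes in grey, with exact 95% binomial intervals. Both rise with window content and their intervals overlap in all 5 classes that chromosome 18 fills.

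The 231 peaks formed 104 clusters, in which each peak lies within 10 kb of the next. Of these, 83 were pairs, 19 held 3 peaks and 2 held 4, and in 27 of the pairs the peaks were less than 500 bp apart. No cluster of chromosome 18 held 5 or more, and only 18 of the 1516 clusters on the other autosomes did. That is too small a share for 0 of 104 to mark chromosome 18 out. Chromosome 23 had 0 of 63, chromosome 19 had 3 of 134 and chromosome 25 had 4 of 84. The share of clusters with 3 or more peaks was 20.2% (21 of 104, exact 95% binomial interval 13.0% to 29.2%), against 17.3% (15.5% to 19.4%) elsewhere. On chromosomes 19, 25 and 23, the nearest in density, that share was 29.1%, 29.8% and 17.5%. Clusters on chromosome 18 had a median length of 6.81 kb and those elsewhere 4.67 kb. This length was not particular to chromosome 18, with 7.21 kb on chromosome 19, 7.86 kb on 25 and 6.33 kb on 23. Of the 21 larger clusters, 14 lay beyond 46 Mb, as did 66 of all 104 clusters and 57.6% of the peaks.

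Both clusters of 4 peaks lay near the distal end. The shorter, chr18:63101112-63108272, packed peaks of 732, 824, 613 and 818 bp into 7.16 kb. The longer, chr18:62459207-62482651, spread peaks of 1455, 1445, 1036 and 1016 bp over 23.4 kb. The tightest triplets were chr18:62016868-62020671, in which peaks covered 87.1% of 3.80 kb, and chr18:48834423-48838303, in which they covered 88.4% of 3.88 kb. Next in length were triplets at chr18:18389558-18395460, chr18:35471022-35477759 and chr18:54984498-54992024, of 5.90, 6.74 and 7.53 kb. The last 5 by the same order were chr18:63118309-63126174, chr18:62344991-62354042, chr18:56105680-56115050, chr18:52920731-52930708 and chr18:63388141-63398646, of 7.87 to 10.5 kb.

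The distal end was split in its fine structure. In chr18:62000001-64000000, 32 of 41 peaks (78.0%, exact 95% binomial interval 62.4% to 89.4%) had another within 10 kb, and 6 of the 21 larger clusters lay there. In the next 2 Mb, with 43 peaks, 10 did (23.3%, 11.8% to 38.6%), and none of the larger clusters lay there. These stretches of nearly equal content were picked after their values were seen.

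The windows chr18:46000001-47000000 and chr18:47000001-48000000, at the start of the dense section, differed in the same way and also in width. The first held 27 peaks whose median width was 1032 bp (interval 800 to 1191 bp, at the 95% level), and 16 of them had another peak within 10 kb. The second held 21 peaks whose median width was 1531 bp (1372 to 1713 bp), and 2 of them did, which were a pair 8.82 kb apart. In the second window widths ran from 877 to 1919 bp, 19 of the 21 peaks were wider than the median of 1228 bp on the other autosomes, and the median distance between neighbouring peaks was 42.0 kb, against 15.0 kb in the first. Among the 60 windows of 20 or more peaks on the other autosomes, median widths ran from 943 to 1412 bp, so none reached that of the second window. A share of close neighbours as low as its 9.52% was found in 2 of those 60 windows. This pair of windows was also picked after its values were seen.

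**Figure D5:**
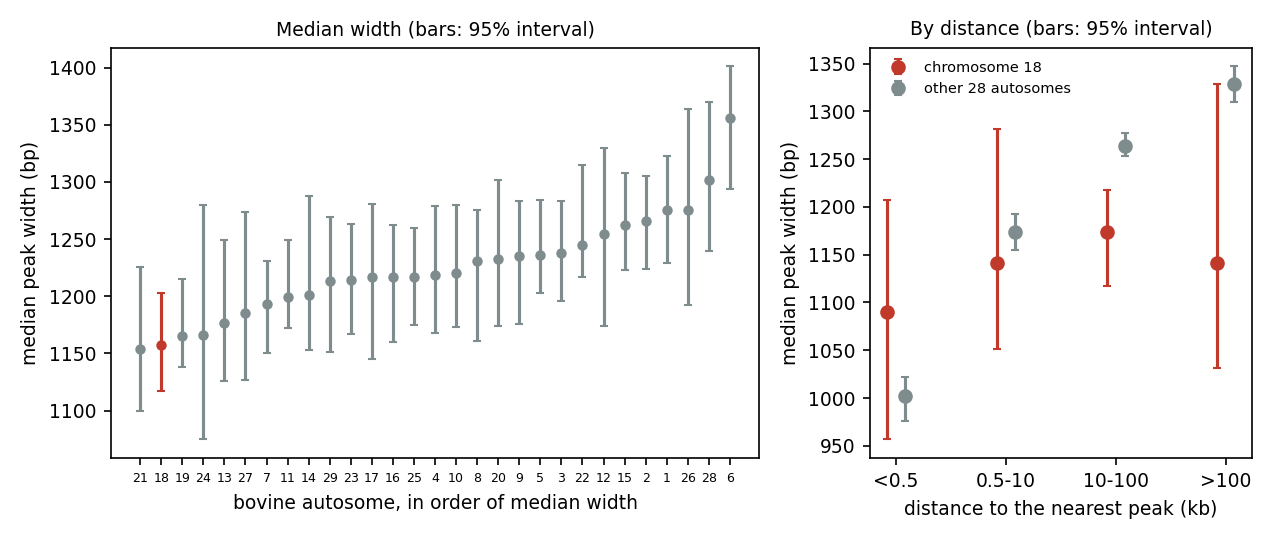
Median peak width (y axes, bp) with the 95% interval of the median, by autosome in order of width (left) and by the distance to the nearest peak (right, kb), with chromosome 18 in red. Chromosome 18 stands second from the lowest on the left at 1157 bp, and on the right the other 28 autosomes climb from 1002 to 1329 bp while chromosome 18 stays between 1090.5 and 1174 bp.

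Peaks on chromosome 18 were narrow for the bovine list. Their median width was 1157 bp (95% interval 1117 to 1203 bp), with quartiles at 899 and 1418 bp, against 1228 bp (1219 to 1238 bp) and quartiles at 962 and 1511 bp on the other autosomes. Chromosome 21 alone was lower, at 1154 bp (1100 to 1226 bp), but the interval of 18 overlapped those of 22 of the 28 other autosomes, so that its place in this order is not set. The 6 whose intervals lay above it were chromosomes 1, 2, 6, 15, 22 and 28. Nearly the same median was found on chromosome 19, at 1165 bp (1138 to 1215 bp), and on chromosome 24, at 1166.5 bp. The dense chromosomes 25 and 23 had 1217 and 1214 bp. Chromosome 6 had the widest peaks, at 1356 bp. Peaks over 2000 bp numbered 17 on chromosome 18 (2.73%, exact 95% binomial interval 1.60% to 4.34%), against 4.43% (4.06% to 4.83%) elsewhere. At the narrow end, 8 peaks (1.29%, 0.557% to 2.52%) were 500 bp or less, against 0.546% (0.418% to 0.701%). At both ends the intervals of chromosome 18 and of the others overlapped. Across the 29 autosomes, denser chromosomes had narrower peaks (Spearman's rho = -0.48, Pearson's r = -0.46, and rho = -0.43 without chromosome 18). This is a description over chromosomes that share 1 list and its unknown depth and calling threshold.

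Widths varied little between the sections of chromosome 18. The median was 1194.5 bp (95% interval 1115 to 1260 bp) before 46 Mb, 1136 bp (1080 to 1192 bp) in the dense section and 1164 bp (1033 to 1285 bp) after it, and these intervals overlapped. Of the 17 broad peaks, 8 lay before the dense section, 9 within it and 0 of 91 after it. Taking 3 counts as the limit that a count of 0 allows, the share there could be up to 3.30%. The exact binomial interval used for the other shares would reach higher.

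The widths of chromosome 18 changed little with distance to the nearest peak, and on Spearman's rho alone so did those of chromosome 23. Across the peaks of a chromosome, which are not independent, Spearman's rho between width and that distance was 0.0580 on chromosome 18, 0.0582 on chromosome 23 and 0.0965 on chromosome 19, with a median of 0.19 over the other 28 autosomes. For peaks more than 100 kb from any other, the median was 1141 bp (95% interval 1032 to 1329 bp, 47 peaks), against 1329 bp (1310 to 1347 bp, 2295 peaks) elsewhere. For peaks at 10 to 100 kb it was 1174 bp (1117 to 1218 bp, 344 peaks) against 1264 bp (1253 to 1277 bp). At 500 bp to 10 kb the medians were 1141 bp (1051 to 1281 bp) and 1174 bp (1155 to 1193 bp). Under 500 bp the order turned, with 1090.5 bp (957 to 1207 bp, 80 peaks) against 1002 bp (976 to 1022 bp). Only at 10 to 100 kb did the intervals of chromosome 18 and of the others not overlap. Isolated peaks, those over 100 kb from the next, were thus 7 bp wider than peaks within 10 kb of another on chromosome 18. On each of the other autosomes they were 100 to 348 bp wider, among them chromosome 23 with 167.5 bp. This contrast rests on 47 isolated peaks on chromosome 18, carries no interval and moved with the choices behind it. With isolation set at over 200 kb, which left 12 peaks, the difference on chromosome 18 was 232.5 bp, close to the median of 234.75 bp over the others. With peaks under 500 bp apart merged it was 63.5 bp and chromosome 18 ranked 4 from the lowest of 29. The mean width was 1190 bp on chromosome 18 and 1263 bp elsewhere, and it was 1249 bp elsewhere when the other autosomes were weighted to the same mix of distances.

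The widest region of the chromosome, 3208 bp at chr18:34392086-34395293, formed the distal edge of a peak-free stretch of 1.25 Mb. The third in width, 2990 bp at chr18:23306436-23309425, closed a stretch of 1.19 Mb and was the most isolated peak of the chromosome, 519 kb from its nearest neighbour. Between them in width was a region of 3022 bp at chr18:55728295-55731316 in the dense section. Regions of 2795 bp (chr18:46654853-46657647), 2619 bp (chr18:51350307-51352925) and 2532 bp (chr18:55875826-55878357) followed, all in that section. The rest of the 10 widest measured 2449 bp (chr18:26471974-26474422), 2357 bp (chr18:56363577-56365933), 2247 bp (chr18:18391780-18394026) and 2165 bp (chr18:50052065-50054229). Of these 10, 5 had another peak within 10 kb. The 5 narrowest peaks measured 415 bp (chr18:65518921-65519335), 419 bp (chr18:12965691-12966109), 426 bp (chr18:13080044-13080469), 436 bp (chr18:34812229-34812664) and 445 bp (chr18:4467243-4467687). No neighbouring peaks of chromosome 18 overlapped, and the closest were 4 bp apart.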

How the data were processed

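SOX9 ChIP-seq of bovine fetal testis was represented by 1 deposited peak list for 2 SOX9 libraries and 1 input. The list gives chromosome, start, end and a further value per line, which the authors deposited and which equals end minus start, the peak width in bp. UMD3.1, 1 of the builds in the submitters' processing notes, was taken for the bovine list. The aligner, peak caller, threshold and handling of replicates were not given in the sources used here. The list holds no peak height or read depth. A threshold or depth that differs would move both the number and the width of peaks.

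Starts were raised by 1 so that positions count from 1. Density used the span from first to last peak, windows were 1 Mb, neighbours lay within 10 kb edge to edge, and peaks over 2000 bp were called broad. Intervals at the 95% level are exact Poisson (counts), Clopper-Pearson (shares, save the limit of 3 counts for 0 broad peaks) and order-statistic (medians). They treat peaks as independent, which neighbours are not. No hypothesis test was run, since the chromosome and the regions were chosen with earlier results of these data known and peaks of a list are not replicates. The regions named are the 10 widest and 5 narrowest peaks, the 10 fullest and all empty windows, the 8 longest peak-free stretches, and the 12 clusters that lead by number of peaks and then by shortness. Regions said to be picked after their values were seen are exceptions. The planned description of genes and sequence was not run, for want of a UMD3.1 genome here. Functions were tested on simulated lists. Python 3.11.15, numpy 2.4.6, pandas 2.3.3, scipy 1.17.1 and matplotlib 3.10.9 were used.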

Additional observations from a re-analysis of the deposited data

How the results depend on the processing

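Of 29 alternative values, 15 stayed near the reported one, meaning within its 95% interval for density, shares of peaks or windows and median width, and within 1.5 times it for peak-free stretches, runs and isolation. Peak density became 7.62 per Mb with clusters counted once and 4.21 among the widest 50% of the list, both by construction, and chromosome 18 then ranked 2 and 3 of 29. Without the dense section it was 6.97 per Mb, rank 4 beside the other autosomes taken whole. Windows of 0.5 Mb put 30.1% of peaks in the fullest 10%, again the lowest share of the 29 autosomes. Windows of 2 Mb left 3.03% without a peak. Stretches over 1 Mb made up 38.0% of the span among the widest 50%. The share of peaks with a neighbour was 23.2% at 5 kb, 55.8% at 20 kb, 27.7% after merging peaks under 500 bp apart and 12.9% among the widest 50%, where chromosome 18 ranked 14, 3, 4 and 7. The run of full windows was 7 long at a minimum of 15 peaks. Isolated minus close widths were 63.5 bp after merging, -13.5 bp with isolation over 50 kb and 232.5 bp over 200 kb. The alternatives on runs, on isolation and on leaving out the dense section were chosen after seeing the data. No paired analysis was possible because 1 list stands for all bovine libraries, and no replicate could be left out for the same reason. Depth is unknown, so regions too shallow to be called cannot be told apart from unbound ones.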
